A study of Homo sapiens with 10 samples.

Results

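The genes described here are 10 target genes of YAP and TAZ, the transcriptional coactivators at the end of the Hippo pathway: CCN1, CCN2, ANKRD1, AMOTL2, LATS2, CRIM1, MYOF, CCDC80, AJUBA and F3. Their regions are all rows of the annotated count table that carry 1 of these symbols, which gave 186 regions of 502 bp out of 67387 annotated regions and 10 genes out of 15633. Of the 186 regions, 35 lay within 1 kb of a transcription start site (TSS) and are called promoter regions below. The other 151 lay in introns, exons, promoter flanks or intergenic sequence and were grouped into 65 elements, an element being regions of 1 gene with gaps of at most 1000 bp. All 186 passed the filter on low counts. The symbol of a region is that of the nearest TSS as annotated by the authors, so a distal region need not act on the gene it is listed under.

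The values are read counts from chromatin immunoprecipitation and sequencing (ChIP-seq) of H3K27ac, a histone mark (acetylated lysine 27 of histone H3) found at promoters and enhancers in use. The cells were H1975, an established line from a human lung adenocarcinoma with mutant EGFR. DMSO controls had 21 days without drug and then 3 days with DMSO. Osimertinib DTPs (drug-tolerant persisters, the cells left after long exposure) had 24 days in osimertinib at 500 nM; the drug inhibits mutant EGFR. The group osimertinib DTP + AZD5153 had 21 days in 500 nM osimertinib and then 3 days in 150 nM AZD5153, a bromodomain inhibitor. The sample titles call this group a combo and the treatment protocol calls it sequential, and neither says outright whether osimertinib was kept on during those 3 days. Each group had 3 replicates, labelled as biological triplicates of this single cell line, and 1 pooled input library was not immunoprecipitated.

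When Hippo signalling is low, YAP and TAZ enter the nucleus and bind TEAD factors, which hold the DNA, often at enhancers that also carry AP-1 sites. Their targets include secreted matrix proteins such as CCN1 and CCN2, and they also include the kinase LATS2 and the YAP-binding protein AMOTL2, which act back on YAP and TAZ. In epithelial cancers the pathway is known for its part in survival under targeted drugs.

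The promoters of 8 of the 10 genes were found among the RefSeq promoter windows of GRCh38.p14, as 10 windows. The 250 bases before each start were searched on both strands for the TEAD core, CATTCC on one strand and thus GGAATG on the opposite one, and for the AP-1 site TGANTCA, which reads the same on both; no matches overlapped. CCN2 held 3 TEAD cores, which began 169, 104 and 95 bases before the start. ANKRD1 held 2, at 220 and 128 bases, and an AP-1 site at 195 bases. Of 35116 promoter windows, 11.9% held a TEAD core, 0.94% held 2 or more, 6.57% held an AP-1 site and 1.06% held both. An AMOTL2 start held 1 TEAD core at 69 bases, an internal AJUBA start held 1 at 59 bases, and F3 held 2 AP-1 sites at 223 and 210 bases. These letters were not in the windows of LATS2, MYOF and CCDC80 or of the other starts of AMOTL2 and AJUBA. Matches and calls did not go together at every gene. With AZD5153, LATS2 and CCDC80 each had 1 called promoter region without a match, that of CCDC80 also in osimertinib DTPs. F3, with its AP-1 sites, had 0. Both a TEAD core and called promoter regions were found at CCN2 (3 called), ANKRD1 (2), AMOTL2 (4) and AJUBA (2), and neither at MYOF. The 4 sequences shown were picked as examples, those of CCN2, ANKRD1 and AMOTL2 for their TEAD cores and that of F3 for its pair of AP-1 sites. Each is given 5′ to 3′ on the minus strand, with the matches in capitals: CCN2 at chr6:131951373-131951622, ANKRD1 at chr10:90921088-90921337, AMOTL2 at chr3:134374448-134374697 and F3 at chr1:94541760-94542009.
CCN2: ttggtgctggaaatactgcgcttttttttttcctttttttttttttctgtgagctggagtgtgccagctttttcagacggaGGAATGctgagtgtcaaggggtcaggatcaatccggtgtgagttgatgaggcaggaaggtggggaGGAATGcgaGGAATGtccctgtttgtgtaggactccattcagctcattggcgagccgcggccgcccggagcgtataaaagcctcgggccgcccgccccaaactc
ANKRD1: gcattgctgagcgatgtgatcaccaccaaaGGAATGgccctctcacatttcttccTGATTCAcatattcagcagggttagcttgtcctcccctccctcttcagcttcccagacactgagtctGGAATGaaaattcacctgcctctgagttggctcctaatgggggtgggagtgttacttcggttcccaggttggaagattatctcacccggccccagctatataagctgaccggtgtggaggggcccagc
AMOTL2: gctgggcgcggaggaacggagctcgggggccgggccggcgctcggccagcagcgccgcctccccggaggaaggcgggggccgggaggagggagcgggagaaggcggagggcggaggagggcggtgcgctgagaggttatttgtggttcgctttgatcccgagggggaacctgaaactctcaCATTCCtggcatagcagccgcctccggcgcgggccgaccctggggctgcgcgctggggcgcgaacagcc
F3: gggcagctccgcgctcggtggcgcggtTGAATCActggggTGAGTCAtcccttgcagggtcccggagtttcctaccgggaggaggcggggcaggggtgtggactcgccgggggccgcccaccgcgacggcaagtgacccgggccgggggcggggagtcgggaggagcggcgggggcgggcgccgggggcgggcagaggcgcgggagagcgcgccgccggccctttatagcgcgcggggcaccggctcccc
The counted region with the largest overlap covered 127 of these bases for CCN2 and 93 for AMOTL2, and no region covered any for ANKRD1 and F3. A further region, chr6:131950965-131951466, also reached into the CCN2 window.

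H3K27ac at these genes was higher in osimertinib DTPs than in DMSO at 42 of the 186 regions, or 22.6%, and lower at 0, by edgeR's quasi-likelihood test at an adjusted p under 0.05. Over all 157919 tested regions, 5.58% were called higher and 5.13% lower. These tested regions include many that carry no annotation, whereas the 186 all come from the annotated ones. The genes were also chosen with earlier results of these data known, so the shares do not test YAP and TAZ targets as a class. At an unadjusted p under 0.05, 76 regions were higher and 1 was lower, and DESeq2 called 53 higher and 0 lower. The median log2 fold change of the 186 regions was 1.00, against 0.15 over all tested regions. In 106 of them every osimertinib DTP library lay above every DMSO library, which was the case for 20.2% of all regions. Every osimertinib DTP library lay below every DMSO library in 8, of which 7 were MYOF regions and 1 an F3 region, against 18.9% of all regions. Promoter regions gave 5 of the 42 calls, of 35 regions, and the others gave 37, of 151, in 16 of the 65 elements. The number of calls moved with single libraries: it was 3 without DMSO replicate 2, 7 without DMSO replicate 3, 17 without osimertinib DTP replicate 3, 23 without DMSO replicate 1, 25 without osimertinib DTP replicate 2 and 84 higher and 1 lower without osimertinib DTP + AZD5153 replicate 3.

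Between osimertinib DTP + AZD5153 and osimertinib DTP, 0 of the 186 regions were called in either direction. Over all tested regions the shares called higher and lower were 0% and 0%, and DESeq2 also called 0 of the 186. At an unadjusted p under 0.05, 5 were higher and 0 lower. Without osimertinib DTP + AZD5153 replicate 3, 39 were higher and 2 lower, and there were 0 without TMM scaling. The count over all regions moved too: 7013 of 157919 passed this limit in either direction, 32444 without that replicate and 7114 without TMM scaling. Of the 186, the log2 fold change was above 0 at 141 regions and below 0 at 45, with a median of 0.28 against 0.06 over all tested regions. Without osimertinib DTP + AZD5153 replicate 3 these medians were 0.49 and -0.17, with still 0 calls. They were 0.14 and -0.09 without TMM scaling, and 0.24 and 0.20 with a loess offset. The medians by gene ran from -0.05 for CCDC80 to 0.61 for ANKRD1.

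Against DMSO, osimertinib DTP + AZD5153 was called higher at 65 of the 186 regions, or 34.9%, and lower at 0, where 9.05% of all tested regions were higher and 9.01% lower. The unadjusted test gave 95 higher and 1 lower, and DESeq2 81 and 0. The median log2 fold change was 1.31, against 0.23 over all regions (1.04 and -0.02 without TMM scaling). All osimertinib DTP + AZD5153 libraries lay above all DMSO libraries in 89 regions, against 14.4% of all regions, and below them in 6, against 19%. The calls numbered 25 without DMSO replicate 2, 26 without DMSO replicate 3, 42 without DMSO replicate 1, 43 without osimertinib DTP + AZD5153 replicate 1 and 113 without its replicate 3. This comparison shares its DMSO libraries with the one above, so the calls of both rest in part on the same values.

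**Figure D1:**
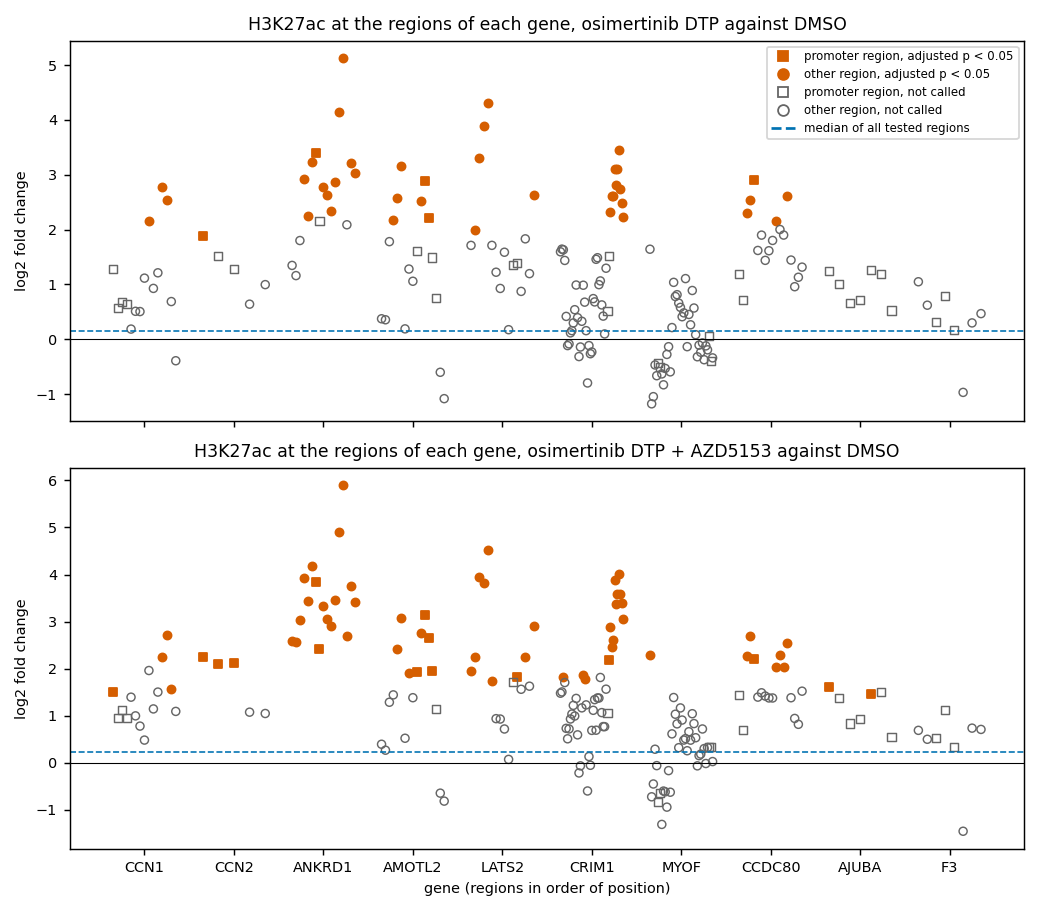
Log2 fold change of H3K27ac (y axis) at each of the 186 regions, ordered by position within each gene (x axis), for osimertinib DTP against DMSO (top) and osimertinib DTP + AZD5153 against DMSO (bottom). Filled symbols mark adjusted p under 0.05, squares are promoter regions, circles are the others and the dashed line is the median of all tested regions; ANKRD1 lies highest as a group, while MYOF lies around 0.

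Summed per gene outside promoters, H3K27ac rose in osimertinib DTPs at 4 of 9 genes (ANKRD1, LATS2, CCDC80 and CRIM1), where 15.6% of all 9382 genes were called higher, and in osimertinib DTP + AZD5153 against DMSO at 6 of 9, with CCN1 and AMOTL2 added, where 20.8% were. AJUBA had promoter regions only. Summed over promoter regions, it rose at 2 of 10 genes in osimertinib DTPs (CCN2 and AMOTL2), where 2.8% of 12295 genes were called higher, and at 4 of 10 in osimertinib DTP + AZD5153 (also ANKRD1 and LATS2), where 6.89% were. No sum was called between the drug groups, by edgeR (0 also at an unadjusted p under 0.05) or by DESeq2. The sums were scaled by TMM on the sums themselves. With the scaling of the single regions in its place, an alternative chosen after seeing the data, the calls outside promoters were 3 in osimertinib DTPs (ANKRD1, LATS2 and CCDC80) and 5 in osimertinib DTP + AZD5153 against DMSO (with AMOTL2 and CRIM1 added). At promoters they were then 1 (ANKRD1) and 3 (with CCN2 and AMOTL2 added), and 0 between the drug groups. Relative to DMSO, the sums' own scaling set replicate 3 of osimertinib DTP + AZD5153 at 1.69 times its level under the regions' scaling outside promoters and at 0.487 times at promoters, where replicate 2 of osimertinib DTP was set at 0.451 times. An increase in bulk chromatin cannot be told apart from a larger share of cells that carry the mark.

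The libraries held 6263443 to 10463351 counts over all regions and the input 1870885. At the 186 regions the input had 2 to 30 reads, with a median of 12. The lowest total was that of osimertinib DTP + AZD5153 replicate 3, which correlated across all regions with the other replicates of its group at a Spearman coefficient of only 0.430 and 0.354, while all other pairs of replicates lay between 0.818 and 0.898. At the strongest promoter region of each gene, this library was the highest of its group in 6 genes and the lowest in 4. Outside promoters it was the lowest of its group in 115 of 151 regions. At the same 10 promoter regions osimertinib DTP replicate 2 was the highest of its group in 9. The part of these libraries in the results was not tested beyond leaving each out. In every library the summed promoters of the epithelial genes EPCAM, KRT8, KRT18, KRT19 and CDH1 had 32.4 to 802 CPM (TMM-scaled read counts relative to library size). Of 7 marker genes of other cell types, 6 had no promoter region in the table and the fibroblast gene COL1A1 had 15.2 to 63.8 CPM.

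**Figure D2:**
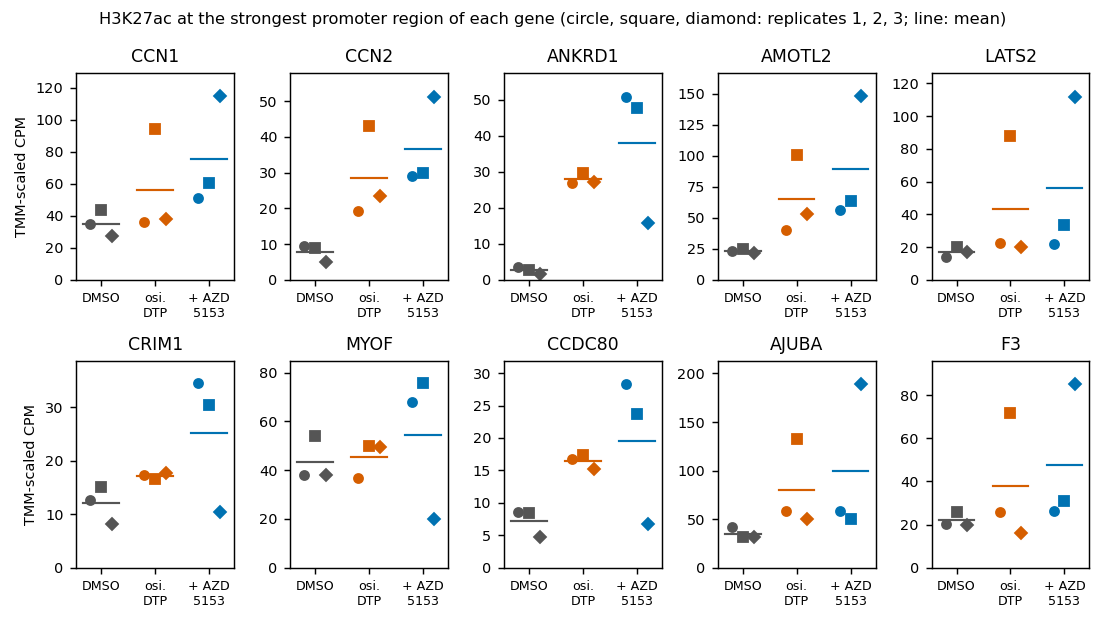
TMM-scaled CPM (y axis, from 0) in each library at the promoter region of each gene with the highest mean, by group (x axis). Circles, squares and diamonds are replicates 1, 2 and 3 and lines are group means. CCN2, ANKRD1, AMOTL2 and AJUBA show DMSO libraries below all others. Replicate 3 of osimertinib DTP + AZD5153 is the highest of its group at CCN1, CCN2, AMOTL2, LATS2, AJUBA and F3 and the lowest at ANKRD1, CRIM1, MYOF and CCDC80.

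CCN1 (CYR61) encodes a secreted matrix protein that binds integrins. Its 15 regions, on chromosome 1, were 4 promoter regions and 11 intergenic regions in 6 elements downstream of the gene, up to 60.3 kb away. In osimertinib DTPs 3 of the 15 were called higher, all of them intergenic, and in osimertinib DTP + AZD5153 against DMSO 4 were, including 1 at the promoter. The median log2 fold changes were 0.69 and 1.14.

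The strongest promoter region of CCN1 (chr1:85581062-85581563) had 34.6, 43.3 and 27 CPM in DMSO, 35.9, 94.4 and 38.2 in osimertinib DTPs and 51.3, 60.5 and 115 in osimertinib DTP + AZD5153, where, as in all such lists, values follow the replicate numbers. The osimertinib DTP libraries overlapped those of DMSO, at 0.68 ± 0.53 (log2 fold change ± SE, adjusted p = 0.461), while all osimertinib DTP + AZD5153 libraries lay above DMSO, at 1.11 ± 0.53 (adjusted p = 0.158). The promoter sum changed by 0.54 (adjusted p = 0.345) and 0.82 (adjusted p = 0.0932) on the log2 scale. The CCN1 promoter carried reads in every library. Its sum in osimertinib DTP + AZD5153 passed the test with DESeq2 (adjusted p = 0.039) and in edgeR without replicate 3 of that group (adjusted p = 0.00944).

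Its strongest intergenic region (chr1:85612407-85612908), 31.2 kb downstream of the TSS, had 13.7, 21.7 and 13.7 CPM in DMSO, 28.5, 48.8 and 36.5 in osimertinib DTPs and 54.3, 69.8 and 14.5 in osimertinib DTP + AZD5153, at 1.21 ± 0.57 (adjusted p = 0.187) and 1.5 ± 0.57 (adjusted p = 0.0778). A weaker region 32.9 kb downstream (chr1:85614104-85614605) had 1.27, 0.929 and 1.31 CPM in DMSO against 6.12, 5.71 and 12.5 in osimertinib DTPs and 6.01, 6.52 and 4.25 with AZD5153. There the log2 fold changes were 2.78 ± 0.58 (adjusted p = 0.00823) and 2.25 ± 0.58 (adjusted p = 0.0135). Both drug groups lay above DMSO without overlap, and they overlapped each other. Without DMSO replicate 2 or 3 the first call was lost (adjusted p = 0.0568 and 0.0753 at the lowest and highest), and without any 1 of the 3 DMSO libraries the second (0.051 to 0.0856).

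The region at chr1:85623302-85623803, 42.1 kb downstream, rose by 2.54 ± 0.77 (adjusted p = 0.0413) and 2.72 ± 0.77 (adjusted p = 0.0217), from 0.544 to 1.34 CPM in DMSO to 2.77 to 7.75 in osimertinib DTPs and 1.35 to 14.1 with AZD5153. The region at chr1:85610181-85610682 passed the test in osimertinib DTPs, at 2.16 ± 0.68 (adjusted p = 0.0484), and was at 1.96 (adjusted p = 0.0516) in osimertinib DTP + AZD5153. The region chr1:85629064-85629565 passed it in osimertinib DTP + AZD5153, at 1.57 ± 0.52 (adjusted p = 0.0431), and was at 0.69 (adjusted p = 0.442) in osimertinib DTPs. The call at chr1:85610181-85610682 was lost with a block for the replicate number (adjusted p = 0.080) and without any of 7 of the 9 libraries, all but osimertinib DTP + AZD5153 replicates 2 and 3 (up to 0.272). That at chr1:85629064-85629565 was lost without any of 7, all but osimertinib DTP replicate 2 and osimertinib DTP + AZD5153 replicate 3 (up to 0.167), and those at chr1:85623302-85623803 were lost without any DMSO library and without osimertinib DTP replicate 2 or 3 (up to 0.155) or osimertinib DTP + AZD5153 replicate 2 (up to 0.129). Summed over its 11 intergenic regions, CCN1 had 213, 278 and 224 CPM in DMSO, 373, 450 and 521 in osimertinib DTPs and 627, 703 and 291 in osimertinib DTP + AZD5153. On this scale the sum was higher in both drug groups than in any DMSO library. With the scaling of the single regions, replicate 3 of osimertinib DTP + AZD5153 (71.3 CPM) lay below all DMSO libraries (79.8 to 140). The sum passed the test in osimertinib DTP + AZD5153, at 1.18 ± 0.33 (adjusted p = 0.0162), and not in osimertinib DTPs, at 0.91 ± 0.33 (adjusted p = 0.0575, or 0.00114 when the third AZD5153 library was left out). The call in osimertinib DTP + AZD5153 was lost with the regions' scaling (adjusted p = 0.0741) and without DMSO replicate 1 or 3 or osimertinib DTP + AZD5153 replicate 2, at 0.0516 to 0.0655.

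CCN2 (CTGF), a secreted matrix protein related to CCN1 and a widely used reporter of YAP activity, is on the minus strand of chromosome 6. It had 5 regions, 3 of them at the promoter. H3K27ac rose at the promoter in both drug groups, and the pair of upstream regions passed the test only when 1 library was left out. The promoter sum was 68.5, 43.5 and 40.8 CPM in DMSO, 113, 118 and 157 in osimertinib DTPs and 169, 197 and 153 in osimertinib DTP + AZD5153, so the groups were fully apart from DMSO. This was a 2.53-fold rise in osimertinib DTPs (log2 1.34 ± 0.24, adjusted p = 0.0139) and a 3.39-fold rise with AZD5153 (1.76 ± 0.24, adjusted p = 0.0034). The former was lost with the scaling of the single regions (adjusted p = 0.133) and without DMSO replicate 2 or 3 or osimertinib DTP replicate 3, at adjusted p = 0.0538 to 0.0775. The latter held with that scaling (adjusted p = 0.023) and without any 1 library.

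The strongest CCN2 region, chr6:131950181-131950682, lay 690 bp into the gene. It had 9.52, 8.88 and 4.83 CPM in DMSO, 19.3, 43.1 and 23.3 in osimertinib DTPs and 28.9, 30.0 and 51.2 in osimertinib DTP + AZD5153. The log2 fold changes were 1.88 ± 0.55 (adjusted p = 0.0359, and 0.0578 with a block for the replicate number) and 2.24 ± 0.56 (adjusted p = 0.0112). Every library of both drug groups was above DMSO. The region over the start (chr6:131950965-131951466) had 7.26, 4.85 and 4.02 CPM in DMSO, 8.99, 31.3 and 6.24 in osimertinib DTPs and 11.7, 14.1 and 44.1 with AZD5153, where it rose by 2.10 ± 0.70 (adjusted p = 0.0449). The region 124 bp upstream (chr6:131951496-131951997) rose there by 2.12 ± 0.64 (adjusted p = 0.0297), from 2.72 to 3.45 CPM in DMSO to 3.48 to 22.2. In osimertinib DTPs these changed by 1.52 (adjusted p = 0.17) and 1.28 (adjusted p = 0.212). All 4 calls were lost without DMSO replicate 2 or 3, at adjusted p up to 0.21, and all but the second at chr6:131950181-131950682 also without DMSO replicate 1. The osimertinib DTP call was lost as well without osimertinib DTP replicate 2 or 3, that at chr6:131950965-131951466 without osimertinib DTP replicate 1 or osimertinib DTP + AZD5153 replicate 3, and that at chr6:131951496-131951997 without osimertinib DTP + AZD5153 replicate 1 or 2.

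Upstream of CCN2 the stronger region (chr6:131954202-131954703, 2.83 kb from the TSS) had 6.44, 11.6 and 7.95 CPM in DMSO, 11.4, 13.1 and 16 in osimertinib DTPs and 21.7, 29.0 and 3.67 with AZD5153. The groups overlapped, at 0.64 ± 0.63 (adjusted p = 0.584) and 1.07 ± 0.63 (adjusted p = 0.262). The sum of both upstream regions had a log2 fold change of 0.87 (adjusted p = 0.162) and 1.00 (adjusted p = 0.0968). Without osimertinib DTP + AZD5153 replicate 3 it was called in both, at adjusted p = 0.0128 and 0.00164.

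ANKRD1 encodes an ankyrin repeat protein of the nucleus and, in muscle, of the sarcomere, and is induced by stretch. Its median change was the largest of the 10 genes in both comparisons with DMSO. Its 17 regions on chromosome 10 were 2 promoter regions, 6 regions downstream of the TSS within the gene body and 9 upstream intergenic regions. In osimertinib DTPs 12 of 17 were called higher and in osimertinib DTP + AZD5153 all 17, with median log2 fold changes of 2.77 and 3.41. All 17 regions had every osimertinib DTP library above every DMSO library. In DMSO no region had a peak in all 3 libraries and 12 had none in any, whereas 13 had a peak in all 3 osimertinib DTP libraries and 15 in all 3 of osimertinib DTP + AZD5153.

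The strongest promoter region of ANKRD1 (chr10:90920115-90920616, 660 bp into the gene) had 3.45, 2.79 and 1.71 CPM in DMSO, 26.9, 29.6 and 27.2 in osimertinib DTPs and 50.7, 47.8 and 15.7 in osimertinib DTP + AZD5153. It rose by 3.39 ± 0.60 on the log2 scale (adjusted p = 0.00417) and by 3.84 ± 0.61 (adjusted p = 0.00145), and both calls held without any 1 library. The other promoter region, 238 bp upstream, had 3.92 to 6.4 CPM in DMSO and 21.3 to 27.6 in osimertinib DTPs, at 2.16 (adjusted p = 0.05, not under the threshold). As a sum the promoter had 33.2, 24.1 and 19.9 CPM in DMSO, 166, 81.9 and 212 in osimertinib DTPs and 273, 285 and 30.8 with AZD5153. On this scale replicate 3 of the last group (30.8) lay within DMSO, whereas with the scaling of the single regions it had 19.9 CPM, above the 5.63 to 9.79 of DMSO. The sum was 2.57 ± 0.71 (adjusted p = 0.0666, and 0.0196 with the regions' scaling) in osimertinib DTPs and 2.93 ± 0.72 (adjusted p = 0.0268) with AZD5153, lost without any 1 DMSO library or without replicate 1 or 2 of osimertinib DTP + AZD5153 (adjusted p = 0.0661 to 0.116).

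Of the elements upstream of ANKRD1, the strongest held 4 regions 8.78 to 10.9 kb from the TSS. Its strongest region (chr10:90930762-90931263) had 9.07, 5.16 and 2.61 CPM in DMSO, 30.2, 44.8 and 29.4 in osimertinib DTPs and 56.9, 65.2 and 17.4 with AZD5153. This was a rise of 2.63 ± 0.62 (adjusted p = 0.0144, lost without DMSO replicate 2 or 3 at 0.0985 and 0.104 at the lowest and highest) and of 3.05 ± 0.63 (adjusted p = 0.00465, held without any 1 library). A second element, 26.0 and 26.5 kb upstream, was almost without reads in DMSO. Its region chr10:90947823-90948324 had raw counts of 5, 1 and 0 in DMSO, 36, 72 and 81 in osimertinib DTPs and 144, 148 and 25 in osimertinib DTP + AZD5153. In CPM this was 0.453, 0.103 and 0, then 3.44, 10.0 and 8.16, then 14.4, 17.2 and 4.83. The log2 fold changes were 5.13 ± 0.89 (adjusted p = 0.00385) and 5.89 ± 0.90 (adjusted p = 0.00134), the largest of all 186 regions, and both held without any 1 library. Its neighbour chr10:90947227-90947728 rose by 4.15 ± 0.77 (adjusted p = 0.00491, and 0.0565 without DMSO replicate 2) and 4.91 ± 0.78 (adjusted p = 0.00148), from 0.302 to 0.907 CPM in DMSO to 6.98 to 14.6 and 4.06 to 24.7.

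Summed over the 15 regions outside its promoter, ANKRD1 had 94.4, 40.0 and 35.9 CPM in DMSO, 352, 363 and 385 in osimertinib DTPs and 651, 595 and 414 in osimertinib DTP + AZD5153. Both drug groups lay above DMSO, also with the scaling of the single regions. The drug groups were apart from each other on this scale and overlapped with the regions' scaling, at 133 to 158 and 101 to 303 CPM. This was a 6.46-fold rise in osimertinib DTPs (2.69 ± 0.39, adjusted p = 0.00123) and a 9.75-fold rise with AZD5153 (3.29 ± 0.40, adjusted p = 0.000383), both held under either scaling and without any 1 library. Between the drug groups the sum differed by 0.59 on the log2 scale (adjusted p = 0.603).

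**Figure D3:**
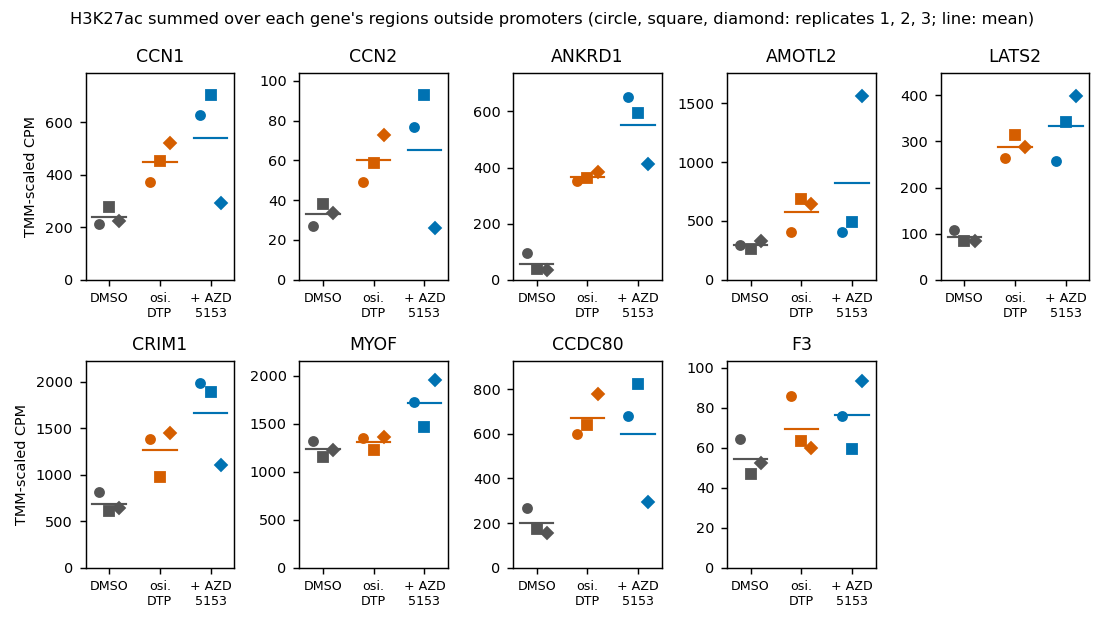
TMM-scaled CPM (y axis, from 0) summed in each library over the regions of each gene outside promoters, by group (x axis), for the 9 genes that have such regions. Circles, squares and diamonds are replicates 1, 2 and 3 and lines are group means. At CCN1, ANKRD1, AMOTL2, LATS2, CRIM1 and CCDC80 all libraries of both drug groups lie above all DMSO libraries. With the scaling of the single regions this does not hold for CCN1, CRIM1 and CCDC80. At MYOF DMSO and osimertinib DTP overlap.

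AMOTL2 encodes an angiomotin family protein that holds YAP at cell junctions. It has 17 regions on the minus strand of chromosome 3, 5 of them at promoters of several annotated starts. H3K27ac was called higher at 6 regions in osimertinib DTPs and at 8 in osimertinib DTP + AZD5153, with medians of 1.49 and 1.44. As a sum the promoters rose in both. They had 245, 185 and 230 CPM in DMSO, 405, 388 and 639 in osimertinib DTPs and 473, 488 and 626 with AZD5153, without overlap with DMSO. The rise was 1.12 ± 0.23 (adjusted p = 0.0239, lost with the scaling of the single regions at 0.166 and without DMSO replicate 2 or 3 or osimertinib DTP replicate 3 at 0.055 to 0.113) and 1.27 ± 0.23 (adjusted p = 0.00912, held without any 1 library).

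The strongest AMOTL2 promoter region (chr3:134373385-134373886) lay over an annotated start. It had 22.9, 25.1 and 21.3 CPM in DMSO, 40.5, 101 and 53.3 in osimertinib DTPs and 56.3, 63.4 and 148 with AZD5153. All drug-exposed libraries were above DMSO, but the change passed the test only in osimertinib DTP + AZD5153, at 1.95 ± 0.54 (adjusted p = 0.0194, 0.0798 to 0.105 without any 1 DMSO library), and was 1.49 ± 0.53 (adjusted p = 0.078) in osimertinib DTPs. The promoter region chr3:134372502-134373003, 590 bp from the nearest annotated start, rose from 5.17, 2.68 and 4.12 CPM to 11.4, 19.6 and 24.9 in osimertinib DTPs and 22.8, 22.1 and 30.5 with AZD5153. These were rises of 2.22 ± 0.55 (adjusted p = 0.0177, lost without any 1 DMSO library or osimertinib DTP replicate 3 at up to 0.128) and 2.65 ± 0.56 (adjusted p = 0.00498, and 0.0506 without DMSO replicate 2).

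Outside promoters, 3 of 4 regions of an element 12.6 to 15.7 kb downstream of the nearest TSS, annotated as intronic or intergenic, were called in osimertinib DTPs. Its leading region (chr3:134353763-134354264) had 2.81, 1.24 and 3.22 CPM in DMSO, 11.7, 29.9 and 23.9 in osimertinib DTPs and 8.92, 20 and 32.7 with AZD5153, at 3.16 ± 0.66 (adjusted p = 0.00818) and 3.07 ± 0.66 (adjusted p = 0.00546). Both were lost only without DMSO replicate 2 (adjusted p = 0.0768 and 0.0509). Next to it, chr3:134352369-134352870 rose by 2.58 ± 0.61 (adjusted p = 0.014) and 2.42 ± 0.61 (adjusted p = 0.012), from 2.27 to 3.42 CPM to 8.41 to 23.9 and 9.12 to 24.7, lost without DMSO replicate 2 or 3 and, in osimertinib DTPs, also without DMSO replicate 1 or osimertinib DTP replicate 2 or 3 (up to 0.107). The strongest region of the gene outside promoters was not called. It is annotated as 3′ UTR (chr3:134357506-134358007) and had 36.1, 57.5 and 42.5 CPM in DMSO, 37.9, 65.4 and 52.2 in osimertinib DTPs and 56.6, 70.0 and 68.4 with AZD5153, at 0.19 ± 0.46 (adjusted p = 0.854) and 0.52 ± 0.46 (adjusted p = 0.48). The sum outside promoters was 298, 263 and 327 CPM in DMSO, 409, 682 and 645 in osimertinib DTPs and 409, 491 and 1560 with AZD5153, at 0.97 ± 0.46 (adjusted p = 0.138) and 1.47 ± 0.47 (adjusted p = 0.0292, 0.0733 to 0.101 without any 1 DMSO library).

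LATS2, the kinase that phosphorylates YAP and TAZ and keeps them out of the nucleus, is on the minus strand of chromosome 13. Of its 16 regions, 5 were called higher in osimertinib DTPs and 9 in osimertinib DTP + AZD5153, with medians of 1.65 and 1.78. Outside its promoter the sum was 108, 83.4 and 84.5 CPM in DMSO, 265, 313 and 289 in osimertinib DTPs and 258, 343 and 399 with AZD5153. Both drug groups were clear of DMSO and overlapped each other. The rise was 3.15-fold (1.65 ± 0.26, adjusted p = 0.00162) and 3.63-fold (1.86 ± 0.26, adjusted p = 0.000649), and both held without any 1 library. All 16 regions had a peak in all 3 osimertinib DTP libraries, whereas 8 had none in any DMSO library.

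The LATS2 calls with the smallest p lay in 1 intronic element of 3 regions, 24.2 to 25.3 kb downstream of the nearest annotated TSS. Its middle region (chr13:20997931-20998432) had 0.635, 0.516 and 0.805 CPM in DMSO, 9.08, 12.9 and 7.45 in osimertinib DTPs and 8.82, 9.42 and 10.1 with AZD5153. The changes of 3.88 ± 0.59 (adjusted p = 0.00292) and 3.83 ± 0.59 (adjusted p = 0.00136) held without any 1 library. The region before it (chr13:20997300-20997801) rose by 3.31 ± 0.61 (adjusted p = 0.00475) and 3.95 ± 0.62 (adjusted p = 0.00143), and the one after it (chr13:20998456-20998957) by 4.31 ± 0.78 (adjusted p = 0.00453) and 4.53 ± 0.78 (adjusted p = 0.00198). Across these, DMSO libraries had 0.516 to 1.36 CPM, osimertinib DTP libraries 7.15 to 21.8 and AZD5153 libraries 6.21 to 30.5. Without DMSO replicate 2 the osimertinib DTP calls at these neighbours were at adjusted p = 0.0587 and 0.0528.

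At the LATS2 promoter, single libraries stood far from the rest. Its strongest region (chr13:21061104-21061605) had 13.8, 20.1 and 17 CPM in DMSO, 22.2, 87.8 and 19.9 in osimertinib DTPs and 22.0, 33.7 and 112 with AZD5153, at 1.35 ± 0.67 (adjusted p = 0.216) and 1.72 ± 0.68 (adjusted p = 0.0872). The promoter sum had 55.3, 62.7 and 71.3 CPM, 93.3, 148 and 97.3, and 96.4, 137 and 194. It rose in osimertinib DTP + AZD5153 against DMSO, at 1.17 ± 0.28 (adjusted p = 0.0251, lost with the scaling of the single regions at 0.159 and without any 1 DMSO library or osimertinib DTP + AZD5153 replicate 2 at 0.0518 to 0.0994), and was 0.84 ± 0.28 (adjusted p = 0.119) in osimertinib DTPs. The strongest region outside it (chr13:21034169-21034670, intronic) had 7.62, 12.7 and 9.35 CPM, 6.60, 12.9 and 14, and 6.01, 18.3 and 6.76. Its groups overlapped, at 0.18 ± 0.58 (adjusted p = 0.897) and 0.07 ± 0.58 (adjusted p = 0.953), the latter with a sign that changed with the scaling.

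AJUBA encodes a LIM domain scaffold that binds LATS kinases and holds them in check. Its 7 regions on chromosome 14 were all promoter regions, at several annotated starts. In osimertinib DTPs 0 of 7 were called (2 at an unadjusted p under 0.05, 1 by DESeq2), though the log2 fold changes were all above 0, from 0.53 to 1.26. In osimertinib DTP + AZD5153 2 were called. The strongest region (chr14:22981332-22981833) had 41.6, 31.5 and 31.5 CPM in DMSO, 58.2, 132 and 50.2 in osimertinib DTPs and 58.8, 50 and 189 with AZD5153. Each drug-exposed library exceeded DMSO, with 1 in each group far above its partners, and the changes were 1.2 ± 0.57 (adjusted p = 0.195) and 1.51 ± 0.58 (adjusted p = 0.0775).

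The called AJUBA regions were chr14:22974717-22975218, at 6.26, 3.72 and 5.93 CPM in DMSO against 19.8, 11.6 and 17.2 in osimertinib DTP + AZD5153 (1.61 ± 0.54, adjusted p = 0.0446), and chr14:22980268-22980769, at 15.8, 15.3 and 12.9 against 42.0, 35.4 and 44.1 (1.47 ± 0.47, adjusted p = 0.0397). In osimertinib DTPs they had 14.7, 8.77 and 14.1, and 30.6, 40.8 and 33.6, also above DMSO, at 1.24 (adjusted p = 0.144) and 1.26 (adjusted p = 0.0949). Both calls were lost without any of 7 of the 9 libraries, all but osimertinib DTP replicate 2 and osimertinib DTP + AZD5153 replicate 3, at up to 0.202 and 0.197. As a sum AJUBA had 476, 360 and 423 CPM in DMSO, 745, 464 and 838 in osimertinib DTPs and 851, 687 and 577 with AZD5153, at 0.70 ± 0.25 (adjusted p = 0.143) and 0.75 ± 0.25 (adjusted p = 0.0774).

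CRIM1, a transmembrane protein with cysteine-rich repeats that binds bone morphogenetic proteins, had the most regions, 45 on chromosome 2. Its osimertinib DTP calls were all in 1 place. The 10 called regions were the 10 regions of a single element of 7747 bp, annotated as intronic but for 1 promoter flank, that begins 2.99 kb past an internal TSS, and all 10 were also called in osimertinib DTP + AZD5153. The other 35 regions had 0 calls in osimertinib DTPs, and 4 in osimertinib DTP + AZD5153. Summed over this element, CPM ran from 11.8 to 21.2 in DMSO, from 78.2 to 144 in osimertinib DTPs and from 45.8 to 222 with AZD5153.

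Within the element, the region chr2:36486816-36487317 had 1.72, 1.86 and 1.21 CPM in DMSO, 16.2, 12.7 and 24.2 in osimertinib DTPs and 34.8, 38.0 and 4.45 with AZD5153. It rose by 3.46 ± 0.72 (adjusted p = 0.00834) and 4.00 ± 0.74 (adjusted p = 0.00262). The strongest one, chr2:36486191-36486692, had 4.53, 2.89 and 2.11 CPM, then 26.0, 24.9 and 32.1, then 50.4, 57.2 and 7.92, at 3.11 ± 0.68 (adjusted p = 0.00972) and 3.59 ± 0.69 (adjusted p = 0.00314). With chr2:36485036-36485537, at 3.11 ± 0.66 (adjusted p = 0.00885) and 3.87 ± 0.68 (adjusted p = 0.00212), and chr2:36488100-36488601, at 2.75 ± 0.63 (adjusted p = 0.0122) and 3.58 ± 0.64 (adjusted p = 0.00225), they were apart from DMSO in every drug-exposed library. The AZD5153 calls of these 4 held without any 1 library, and the osimertinib DTP calls were lost without DMSO replicate 2 or 3, and that at chr2:36488100-36488601 also without osimertinib DTP replicate 3 (up to 0.0966).

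The strongest CRIM1 region outside promoters, chr2:36477686-36478187, 1.36 kb before the same TSS, had 16.6, 14 and 8.45 CPM in DMSO, 26.7, 28.1 and 41.3 in osimertinib DTPs and 48.1, 51.2 and 16 with AZD5153, at 1.30 ± 0.55 (adjusted p = 0.14) and 1.56 ± 0.55 (adjusted p = 0.058). The strongest promoter region, chr2:36478478-36478979, had 12.7, 15.1 and 8.25 CPM, 17.3, 16.6 and 17.6, and 34.4, 30.4 and 10.4, at 0.52 ± 0.55 (adjusted p = 0.618) and 1.06 ± 0.55 (adjusted p = 0.194). The other promoter region, chr2:36479313-36479814, was called higher in osimertinib DTP + AZD5153 against DMSO, at 2.18, and was not called in osimertinib DTPs, at 1.51. Both promoter regions lay at the internal TSS, and CRIM1 had none at another start. The promoter sum changed by 0.78 (adjusted p = 0.511) and 1.19 (adjusted p = 0.203). The sum of the 43 other regions was 818, 607 and 638 CPM in DMSO, 1390, 975 and 1450 in osimertinib DTPs and 1990, 1890 and 1110 with AZD5153, a 1.85-fold rise (0.89 ± 0.28, adjusted p = 0.033) and a 2.42-fold rise (1.27 ± 0.28, adjusted p = 0.00498). The first was lost with the scaling of the single regions (adjusted p = 0.151) and without DMSO replicate 2 or 3 or osimertinib DTP replicate 1 or 3 (0.0956 to 0.135), and the second held without any 1 library. With the scaling of the single regions, however, replicate 3 of osimertinib DTP + AZD5153 had 273 CPM, within the 247 to 307 of DMSO.

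CCDC80, a secreted matrix-associated protein, had 18 regions on the minus strand of chromosome 3, of which 5 were called higher in osimertinib DTPs and 7 in osimertinib DTP + AZD5153. In all 18 every osimertinib DTP library lay above every DMSO library, and all 18 had a peak in all 3 osimertinib DTP libraries, against 7 in all 3 of DMSO. Outside promoters the sum was 268, 175 and 156 CPM in DMSO, 600, 637 and 777 in osimertinib DTPs and 678, 823 and 296 with AZD5153. This was a 3.37-fold rise in osimertinib DTPs (1.75 ± 0.38, adjusted p = 0.00609) and a 3.01-fold rise with AZD5153 (1.59 ± 0.37, adjusted p = 0.00734), both held without any 1 library and with the scaling of the single regions (adjusted p = 0.0244 and 0.0208). With that scaling, however, replicate 3 of osimertinib DTP + AZD5153 had 72.5 CPM, within the 60.1 to 100 of DMSO, and in 6 of the 18 regions every library of that group lay above DMSO. Between the drug groups the median log2 fold change of CCDC80 was -0.05, with 0 regions called.

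The strongest CCDC80 region outside promoters, chr3:112671488-112671989, 22.0 kb upstream, had 11.3, 6.51 and 4.83 CPM in DMSO, 26.9, 32.6 and 31.6 in osimertinib DTPs and 43.8, 58.1 and 8.5 with AZD5153. It was 2.00 ± 0.63 (adjusted p = 0.051) in osimertinib DTPs, just over the threshold, and rose by 2.28 ± 0.64 (adjusted p = 0.0211) with AZD5153. In the same element, chr3:112672942-112673443 rose from 4.35, 1.03 and 1.21 CPM to 14.6, 12.4 and 14, and to 14.6, 17.1 and 6.96, at 2.62 ± 0.64 (adjusted p = 0.0171) and 2.54 ± 0.64 (adjusted p = 0.0127). The third region there, chr3:112670340-112670841, rose by 2.16 ± 0.57 (adjusted p = 0.0235) and 2.03 ± 0.57 (adjusted p = 0.0209). Each of these calls was lost without DMSO replicate 2 or 3 (up to 0.146). The osimertinib DTP call at chr3:112670340-112670841 was also lost without any other library of DMSO or osimertinib DTP, that at chr3:112672942-112673443 without osimertinib DTP replicate 2 or 3, and the AZD5153 calls at the other regions without osimertinib DTP + AZD5153 replicate 1 or 2.

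Near the CCDC80 start, chr3:112647325-112647826 had 2.90, 3.82 and 1.71 CPM in DMSO, 13.7, 18.1 and 17.2 in osimertinib DTPs and 20.6, 27.8 and 5.80 with AZD5153, at 2.53 ± 0.63 (adjusted p = 0.0179) and 2.69 ± 0.63 (adjusted p = 0.00892, and 0.0705 without DMSO replicate 3). The promoter region chr3:112648304-112648805 had 0.998, 0.413 and 0.302 CPM, then 3.92, 2.92 and 6.34, then 3.71, 2.21 and 2.13, at 2.91 ± 0.67 (adjusted p = 0.0124) and 2.2 ± 0.67 (adjusted p = 0.0298). The strongest promoter region, chr3:112640600-112641101, had 8.52, 8.36 and 4.73 CPM, 16.7, 17.4 and 15.2, and 28.3, 23.7 and 6.76. It was 1.19 ± 0.58 (adjusted p = 0.206) and 1.45 ± 0.58 (adjusted p = 0.0934), although osimertinib DTP libraries did not overlap DMSO. The osimertinib DTP calls at chr3:112647325-112647826 and chr3:112648304-112648805 were lost without DMSO replicate 2 or 3 or osimertinib DTP replicate 3, and the first also without DMSO replicate 1 or osimertinib DTP replicate 2 (up to 0.124). The AZD5153 call at chr3:112648304-112648805 was lost without DMSO replicate 2 or 3 or osimertinib DTP + AZD5153 replicate 1 (up to 0.161). The promoter sum changed by 1.05 (adjusted p = 0.434) and 1.06 (adjusted p = 0.334).

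**Figure D4:**
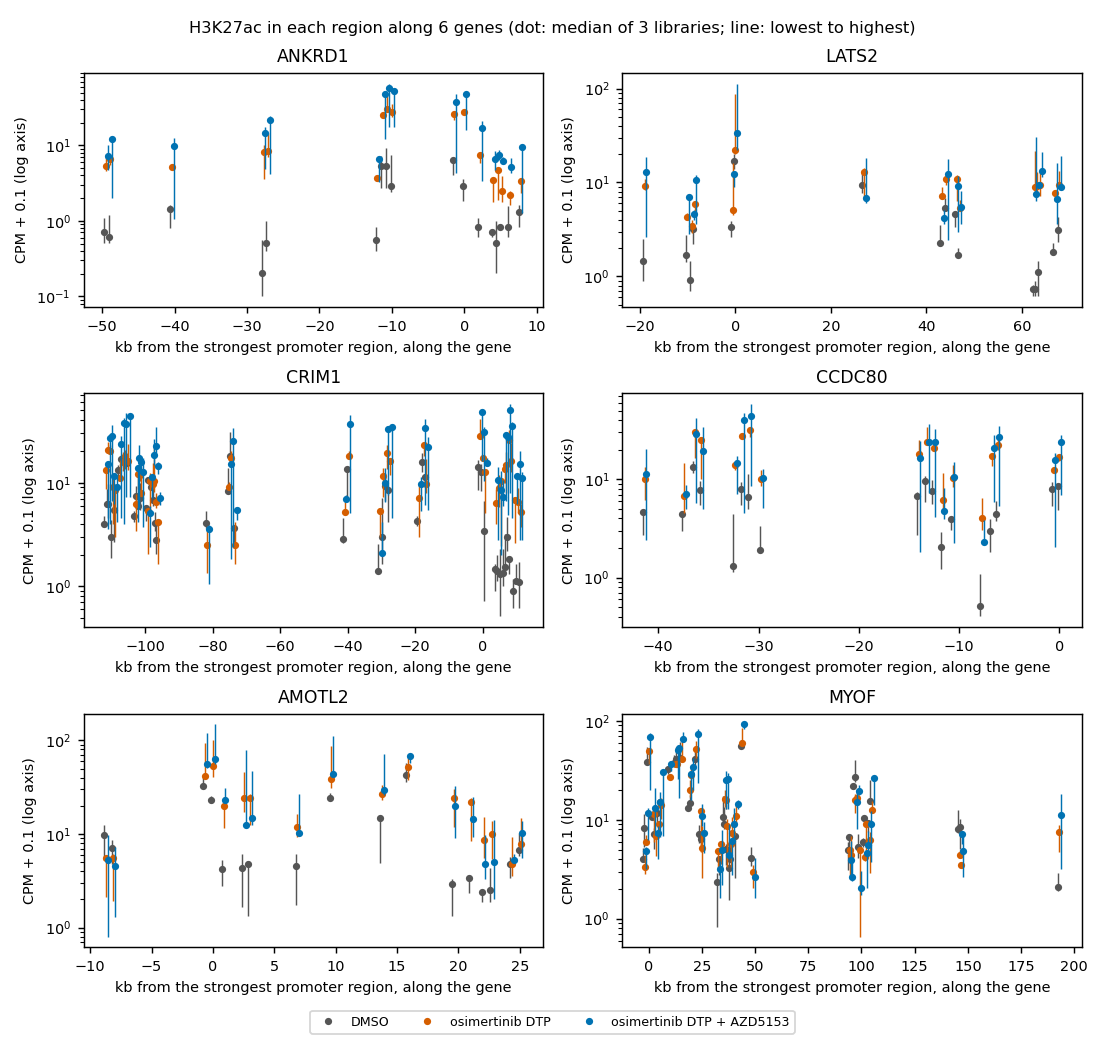
TMM-scaled CPM + 0.1 (y axis, log axis) at each region of 6 genes against its distance in kb from the gene's strongest promoter region, along the direction of the gene (x axis). Dots are medians of 3 libraries and lines run from the lowest to the highest library; at CRIM1 the DMSO dots are lowest in the element just past 0, at LATS2 they are lowest in an intronic element towards the right, and at MYOF DMSO and osimertinib DTP dots are intermixed over the gene.

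MYOF, a ferlin of the plasma membrane that serves membrane repair, had 38 regions on chromosome 10 in 19 elements besides its promoters. In osimertinib DTPs 0 of 38 were called, by edgeR or DESeq2, with 1 higher and 1 lower at an unadjusted p under 0.05, and 22 of the 38 log2 fold changes were below 0, with a median of -0.13. In 7 of the 38 regions all osimertinib DTP libraries lay below all DMSO libraries, where 18.9% of all tested regions did. They lay above in 5, against 20.2%. As sums, 3 of the 19 elements lay above and 4 below. The element with the most regions among those below (chr10:93382482-93385099) had 51, 67.3 and 54.2 CPM in DMSO, 39.7, 31.8 and 35.3 in osimertinib DTPs and 41.7, 39.3 and 27.5 with AZD5153, the last also below DMSO, and none of its regions was called. The strongest region (chr10:93437552-93438053, intronic) had 55.8, 64.3 and 54.8 CPM in DMSO, 59.4, 84.2 and 59.4 in osimertinib DTPs and 82.7, 92.3 and 92.4 with AZD5153. The last group lay above DMSO without overlap, at 0.61 ± 0.44 (adjusted p = 0.365), and osimertinib DTPs were at 0.21 ± 0.44 (adjusted p = 0.822). The strongest promoter region (chr10:93481588-93482089) had 38.0, 53.9 and 38.2 CPM, 36.8, 49.7 and 49.4, and 68.0, 75.6 and 19.9, at 0.06 ± 0.52 (adjusted p = 0.962, with a sign that changed with the scaling) and 0.33 ± 0.52 (adjusted p = 0.715).

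The sum over the 34 MYOF regions outside promoters was 1320, 1150 and 1230 CPM in DMSO, 1350, 1220 and 1360 in osimertinib DTPs and 1720, 1460 and 1950 with AZD5153, at 0.08 ± 0.19 (adjusted p = 0.776) and 0.47 ± 0.20 (adjusted p = 0.0794). With the scaling of the single regions, replicate 3 of osimertinib DTP + AZD5153 had 477 CPM, within the 476 to 579 of DMSO. The promoter sum, whose sign against DMSO changed without single libraries, was -0.18 ± 0.57 (adjusted p = 0.899) and -0.01 ± 0.57 (adjusted p = 0.992). The single MYOF call was a region annotated as intergenic (chr10:93288629-93289130), with 2.00, 2.79 and 1.81 CPM in DMSO, 4.59, 8.77 and 7.35 in osimertinib DTPs and 11, 18.3 and 3.09 with AZD5153. It rose by 2.30 ± 0.64 (adjusted p = 0.0204) in the last, lost without any 1 DMSO library or osimertinib DTP + AZD5153 replicate 2 (0.0748 to 0.111), and was 1.64 ± 0.63 (adjusted p = 0.104) in osimertinib DTPs. It was also the MYOF region with no peak in any DMSO library and a peak in all 3 of osimertinib DTPs.

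F3, tissue factor, which starts blood coagulation, had 8 regions on chromosome 1, and 0 were called in any comparison by edgeR or DESeq2; at an unadjusted p under 0.05 there were 0 in osimertinib DTPs and 1, lower, in osimertinib DTP + AZD5153 against DMSO. The strongest promoter region (chr1:94541225-94541726) had 20.1, 25.7 and 19.9 CPM in DMSO, 25.6, 71.5 and 16.1 in osimertinib DTPs and 26.1, 31.1 and 85.2 with AZD5153, so 1 library of each drug group was far above the rest. Its changes were 0.78 ± 0.61 (adjusted p = 0.466; -0.015 without osimertinib DTP replicate 2) and 1.11 ± 0.61 (adjusted p = 0.225). The promoter sum was 217, 203 and 212 CPM, 249, 196 and 253, and 258, 260 and 237, at 0.14 ± 0.15 (adjusted p = 0.666) and 0.26 ± 0.15 (adjusted p = 0.29). A region 2.33 kb upstream (chr1:94544094-94544595) had 5.8, 5.37 and 4.93 CPM in DMSO, 4.11, 1.95 and 2.11 in osimertinib DTPs and 2.71, 2.21 and 0.773 with AZD5153, both drug groups below DMSO, at -0.97 and -1.46, without a call. The strongest distal region (chr1:94579621-94580122), 37.9 kb upstream, had 5.99, 7.85 and 6.03 CPM, 9.37, 9.46 and 5.64, and 12.2, 12.4 and 8.31, at 0.30 ± 0.51 (adjusted p = 0.784) and 0.73 ± 0.52 (adjusted p = 0.354). The sum outside promoters changed by 0.35 ± 0.31 (adjusted p = 0.428) and 0.48 ± 0.32 (adjusted p = 0.251).

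The peak lists, which the authors called in each library on its own, rest on the same reads as the counts. A peak overlapped 102 of the 186 regions in all 3 DMSO libraries, 163 in all 3 osimertinib DTP libraries and 140 in all 3 of osimertinib DTP + AZD5153. Over all 67387 annotated regions the shares were 75.8%, 75.9% and 55.6%. No peak in any DMSO library but 1 in every osimertinib DTP library was found at 37 regions, against 8.79% of all annotated regions: 8 each of ANKRD1, LATS2 and CRIM1, 4 each of AMOTL2 and CCDC80, 3 of CCN1 and 1 each of MYOF and F3. The reverse was found at 1 region, of MYOF, against 8.12%. The lists held 54188 to 70227 peaks.

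Among 13 other genes of the YAP and TAZ signature, 12 had regions, 193 in all, and these were called in both directions: 18 higher (9.33%) and 19 lower (9.84%) in osimertinib DTPs, 0 between the drug groups, and 32 higher and 23 lower in osimertinib DTP + AZD5153 against DMSO. RBMS3, an RNA-binding protein, had 9 of 26 regions higher in osimertinib DTPs, led by 1 at 3.73 (adjusted p = 0.00413). NT5E, the ecto-nucleotidase CD73, had 5 of 10 lower, led by 1 at -3.14 (adjusted p = 0.00764). The genes of the pathway's own factors (YAP1, WWTR1, TEAD1 to TEAD4 and VGLL4) had 105 regions, with 2 higher (1.9%) and 12 lower (11.4%) in osimertinib DTPs, 0 called between the drug groups and 4 higher (3.81%) and 17 lower (16.2%) in osimertinib DTP + AZD5153 against DMSO. Among all tested regions, 5.58% were higher and 5.13% lower in osimertinib DTPs, and 9.05% and 9.01% in osimertinib DTP + AZD5153. All 12 lower regions of these genes in osimertinib DTPs were those of WWTR1, which encodes TAZ and has 25 regions, 1 of them called higher. They were led by 1 at -3.46 (adjusted p = 0.00459), and YAP1 had 0 of 19 called in osimertinib DTPs. In osimertinib DTP + AZD5153 against DMSO, WWTR1 had 2 higher and 15 lower. YAP1 had 2 of 19 lower there, led by 1 at -2.81 (adjusted p = 0.0238).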

How the data were processed

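H3K27ac ChIP-seq was analysed in 9 libraries of H1975 cells, 3 per group as the labels give them, and 1 pooled input. Cells were fixed for 15 min in 1% formaldehyde, and single-end reads of 75 nt were sequenced. The submitters' processing notes name hg38, BWA 0.7.17, MACS2 2.2.6, featureCounts 2.0.0 and ChIPseeker 1.29.1, without their roles; duplicate handling is not given in the sources used here. The deposited files give raw read counts, not normalized by the authors, in 169637 regions of 502 bp and, for 67387 of them, a nearest gene, an annotation class and a distance to a TSS. The authors also deposited peaks called per library, with fold enrichment as a ratio and p and q as −log10 values; only the positions were used here, and the −log10 q for a stricter threshold. The highest H3K27ac count in any region was 1148, against a ceiling of 1152 for 1 read per position and strand. Precision is set by the counts and by 3 replicates. What separates the replicates beyond the label of biological triplicates is not stated, so p-values measure the spread between these samples.

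The test was that of edgeR 4.0.16, with limma 3.58.1 and R 4.3.3, in 1 fit of the 9 libraries: filterByExpr with a minimum count of 10, TMM, glmQLFit with robust estimation and glmQLFTest, two-sided, over 157919 regions, with Benjamini-Hochberg adjustment over all of them. A call is an adjusted p under 0.05. Counts summed per gene, over promoter regions or over the others, were tested in the same way over all genes. The SE is that of the log2 fold change. CPM values are scaled with TMM, relative to the counts in the tested regions or sums, so levels of sums and of single regions are on different scales. The code was tested on simulated data. Alternatives tried were no filter, DESeq2 1.42.0, a loess offset (span 0.3) or plain library size in place of TMM, a fit of annotated regions, a fit of the libraries compared, a saturation correction, an adjusted p under 0.01, a block for the replicate number and leaving out each library; sums were also tested with the library scaling of the single regions, an alternative added after seeing the data.

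The text describes, for each gene, the promoter region and the other region with the highest mean CPM, and up to 3 called regions per comparison by smallest adjusted p. Members and lists were chosen with earlier results of these data known. All groups carry replicate numbers 1 to 3 in their titles. Libraries of osimertinib DTP and DMSO with the same number deviated together from their groups (Pearson correlations of 0.334, 0.355 and 0.324 over regions), which counts as pairing under the rule used, over 0.1 in every pair. What a number stands for is not given in the labels. No peak or enhancer sequence was read, and CCN1 and CRIM1 were not in the promoter table.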

Additional observations from a re-analysis of the deposited data

How the results depend on the processing

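The number of the 186 regions called between osimertinib DTP and DMSO, 42, stayed within 1.5 times under 7 of the alternative settings and was 82 with only the libraries compared and 13 at an adjusted p under 0.01, which brought the 65 of osimertinib DTP + AZD5153 against DMSO to 29. Leaving out each library gave 3 to 85 and 25 to 113 regions, 3 to 7 and 4 to 8 enhancer sums (4 and 6 with all libraries), and 0 to 4 and 2 to 8 promoter sums (2 and 4). With the library scaling of the single regions, chosen after seeing the data, 3 and 5 enhancer sums and 1 and 3 promoter sums were called. No setting gave a call between the drug groups. With peaks at a −log10 q of at least 10, regions with a peak in all 3 libraries numbered 65 in DMSO and 93 in osimertinib DTP + AZD5153. Low counts at the weakest regions limit their precision; the causes of these shifts were not tested.

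With a block for the replicate number, which pairs osimertinib DTP with DMSO, 39 regions, 4 enhancer sums and 2 promoter sums were called in osimertinib DTPs. In osimertinib DTP + AZD5153 against DMSO, where correlations of -0.0183, 0.553 and 0.362 gave no pairing, the block gave 59 regions, 6 enhancer sums and 3 promoter sums, and against osimertinib DTP 0 regions. Beside the calls whose blocked values stand in the text, it ended no named call in osimertinib DTPs.

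Some small changes reversed. The LATS2 region at 21034169 in osimertinib DTP + AZD5153 against DMSO (0.07) was -0.15 without TMM, -0.053 with the block, -0.066 with loess and -0.65 to 0.34 without single libraries. In osimertinib DTPs, the MYOF region at 93437552 (0.21) was -0.013 with loess, and that at 93481588 (0.06) was -0.060 with DESeq2, -0.0022 without TMM, -0.066 with loess and -0.037 to 0.30 without single libraries. Without single libraries the F3 region at 94541225 ran from -0.015 to 1.24, and the MYOF promoter sum from -0.56 to 0.16. That sum in osimertinib DTP + AZD5153 against DMSO (-0.01) was 0.0035 with DESeq2, 0.13 with the scaling of the single regions and ran from -0.34 to 0.47. The remaining values of named regions were counted once for each fold change and setting. Under settings that kept all libraries, 30 such values came to pass the threshold, 21 lost it and 646 stayed on the same side. With 1 library left out, 24 came to pass it, 126 lost it and 637 stayed on the same side.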
